A study of Mus musculus with 2 samples.

Results

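The miRNA genes described here include those best known from blood vessel walls. Mir126a and Mir126b lie at the endothelial gene Egfl7, and Mir143 and Mir145a are known from mural cells, the smooth muscle cells and pericytes that surround the endothelium. Mir145b, at another locus, was grouped with the mural genes by its name. All 5 genes were chosen by name through their Ensembl identifiers. Of the 5 genes, 4 had a row in the tables of 1973 miRNA genes, and Mir126b was not analysed as a row of its own. At least 10 counts in each pup, the limit for calling a gene detected, were reached by 3 of the 5 (Mir126a, Mir143 and Mir145a), against 352 of all 1973 genes.

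Small RNA below 30 bases was sequenced from whole neural tubes of B6NCrl mice on postnatal day 0. The only group held 2 libraries, each made from the neural tube of a single pup (pup 1 and pup 2, born to 1 dam). The labels name no allele or treatment, and the sex was not collected. The pups therefore give the spread around each level and a comparison of 2 libraries, not of conditions. A neural tube taken whole holds vessels, meninges or blood only as far as the dissection kept them, and in bulk RNA fewer cells of a type cannot be told from less RNA per cell.

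MicroRNAs are cut from a hairpin precursor and repress messenger RNAs that pair with their seed, bases 2 to 8 of the mature strand. In endothelium miR-126 is known to keep vessels intact and to favour signalling by vascular endothelial growth factor through repression of Spred1, and it is also known from blood stem cells and platelets. Mir143 and Mir145a are made from a common primary transcript that serum response factor and myocardin drive in smooth muscle, where the products are known to favour the contractile state.

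Mir126a spans chromosome 2 from 26591357 to 26591429 on the plus strand (mm10). In GENCODE M21 it was intronic in 8 Egfl7 transcripts and in 1 transcript of Gm20532, and exonic only in 1 Egfl7 transcript, which retains that intron. Mir126b spans 26591363 to 26591420 on the minus strand, so that all 58 of its bases lie within Mir126a, and its hairpin is an exact stretch of the reverse complement of the Mir126a hairpin. RefSeq (GRCm38.p6) held hairpins for 2 of the 5 genes. They are shown because the strand of a read is all that separates these 2 genes. Capitals mark miR-126a-3p in the first hairpin and the seed in each mature sequence.
Mir126a hairpin: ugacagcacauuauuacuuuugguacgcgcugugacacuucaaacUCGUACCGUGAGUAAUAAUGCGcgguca
Mir126b hairpin: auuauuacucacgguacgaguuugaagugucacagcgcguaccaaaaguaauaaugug
miR-126a-3p: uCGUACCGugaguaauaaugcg
miR-126b-5p: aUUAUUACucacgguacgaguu
miR-126b-3p: cGCGUACCaaaaguaauaaugug

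The 3 mature strands shown carry 3 different seeds, and none of these seeds occurred in another of the 1738 mature mouse sequences of the RefSeq table. That table held no entry for miR-126a-5p, the other arm of the Mir126a hairpin, so its seed was not compared. miR-126b-5p is the reverse complement of miR-126a-3p over 19 bases. On the same strand, miR-126a-3p and miR-126b-3p share a stretch of 10 bases. No stretch of 18 bases or more was shared between any of the 5 precursors and a miRNA gene at another locus, out of 2200 or 2201 compared for each; the longest for Mir126a was 12 bases.

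Mir143 lies on chromosome 18 from 61649196 to 61649258 and Mir145a from 61647825 to 61647894, both on the minus strand, with 1301 bases between them and no other annotated gene across either. The noncoding gene Carmn ends 366 bases before Mir143 on that strand. Mir145b lies 7374304 bases away from Mir145a, from 69022199 to 69022273, also on the minus strand. Its precursor shares 17 bases with that of Mir145a, so a read of more than 17 bases could not match both exactly.

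Mir126a was among the most abundant miRNA genes of the newborn neural tube, as counted. It had 89539 counts in pup 1 and 95205 in pup 2, of 3216453 and 3660693 counts on the genes' own strand. Scaled to a library total of 1000000 own-strand counts (CPM), Mir126a stood at 27838 CPM in pup 1 and 26007 CPM in pup 2, a mean of 26923 CPM ± 1294 (SD, n = 2). Pup 1 was the higher, and the exact 95% Poisson intervals, 27656 to 28021 and 25842 to 26173 CPM, did not overlap. Such intervals cover counting error only. Mir126a took 2.78% and 2.60% of the own-strand counts, or 1.41% and 1.32% of all reads, and ranked 6 in pup 1 and 8 in pup 2. Multimapping reads, 35.7% of all reads in pup 1 and 35.4% in pup 2, were counted to no gene. Genes of miRNAs with several copies can therefore rank too low, which limits all ranks given here.

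Mir143, the leading gene of the mural pair, had 22111 and 25915 counts in pups 1 and 2. Its level was 6874 CPM (95% interval 6784 to 6966) in pup 1 and 7079 CPM (6993 to 7166) in pup 2, with a mean of 6977 CPM ± 145 (SD, n = 2). Here pup 2 was the higher and the intervals again did not overlap. Only 24 genes had a higher mean, as counted.

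Mir145a, encoded beside Mir143, was far lower. It had 675 and 707 counts, which gave 209.9 CPM (95% interval 194 to 226) in pup 1 and 193 CPM (179 to 208) in pup 2, a mean of 201 CPM ± 11.8 (SD, n = 2). The intervals of the pups overlapped. Its mean ranked 176, as counted.

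Mir145b had 0 counts on either strand in both pups. A count of 0 allows up to 3 counts, or 0.933 CPM in pup 1 and 0.820 CPM in pup 2. Against that limit Mir145a was at least 225-fold higher in pup 1 and at least 236-fold higher in pup 2.

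**Figure D1:**
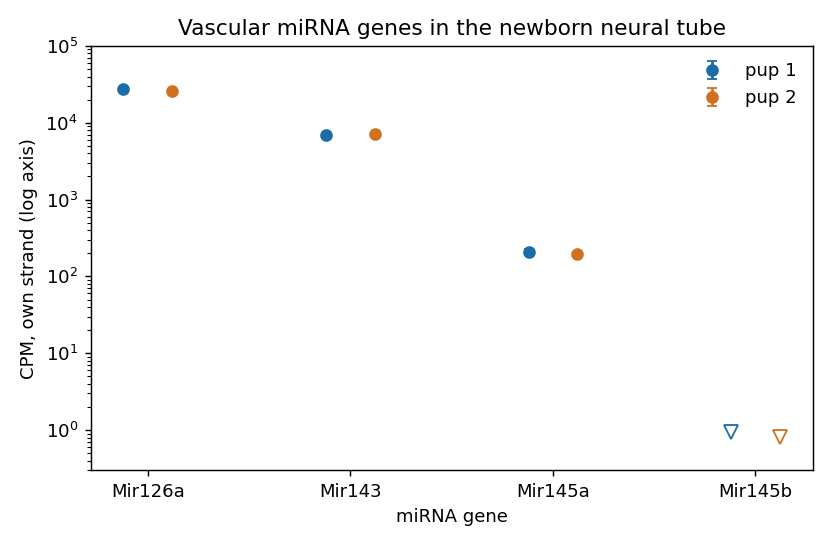
CPM on a logarithmic axis for the 4 vascular miRNA genes with a row, for pup 1 (blue) and pup 2 (orange); error bars are exact 95% Poisson intervals, mostly smaller than the points, and open triangles mark the upper limit for Mir145b, which had 0 counts. The genes fall from 26923 CPM (Mir126a) through 6977 (Mir143) to 201 CPM (Mir145a) in mean, with the pups side by side.

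The order of the members was Mir126a, Mir143, Mir145a and Mir145b in both pups. A small RNA read covers a whole mature miRNA, so levels were compared per read, and per base of precursor as a check. On the log2(CPM + 1) scale the mean of Mir126a lay 1.95 above that of Mir143, or 1.73 per base of precursor. The limit was 2 SDs pooled over genes of like abundance, a difference of 0.33. Mir143 lay 5.11 above Mir145a (5.26 per base), against a limit of 0.38. Both steps thus exceeded the spread between the pups, which covers no bias between genes shared by the libraries.

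**Figure D2:**
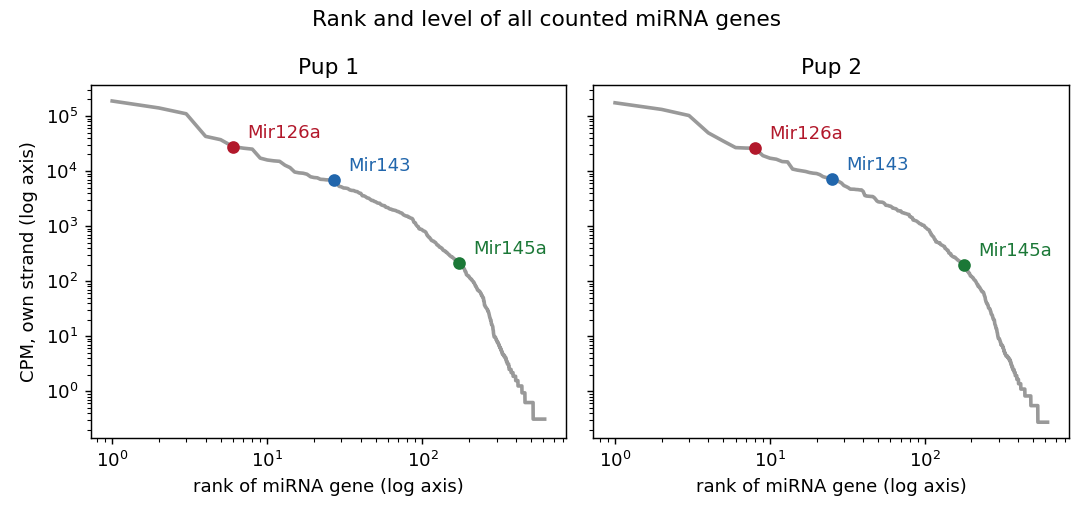
CPM against rank for every miRNA gene with a count, both on logarithmic axes, in pup 1 (left) and pup 2 (right), with Mir126a, Mir143 and Mir145a marked on the grey curve of all genes. Mir126a sits near the top (rank 6 and 8), Mir143 at ranks 27 and 25, and Mir145a at ranks 171 and 179, where the curve begins to steepen. Multimapping reads were not counted.

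Ratios within a library do not depend on how the libraries were scaled. Mir126a exceeded Mir143 by 4.05-fold in pup 1 (exact 95% binomial interval 3.99 to 4.11) and 3.67-fold in pup 2 (3.62 to 3.72). The ratio of these 2 genes was lower in pup 2 by more than counting error, and it stands for no other endothelial or mural gene. Mir143 exceeded Mir145a by 32.8-fold in pup 1 (30.3 to 35.4) and 36.7-fold in pup 2 (34.0 to 39.6). These intervals overlapped, and Mir145a made up 2.81% ± 0.217 of the pair's counts (SD, n = 2). Counts were per precursor, so the 5p and 3p arms of Mir126a, Mir143 and Mir145a were not separated.

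At the Mir126 locus the reads came almost wholly from the Mir126a strand. Reads opposite to Mir126a, the strand of Mir126b, numbered 3 in pup 1 and 4 in pup 2, against 89539 and 95205 on the strand of Mir126a. That is 0.00335% (exact 95% binomial interval 0.000691 to 0.00979%) and 0.00420% (0.00114 to 0.0108%) of the reads at the locus. Of the 145 genes with at least 1000 own-strand counts in each pup, 19 had any opposite-strand count, and 12 of them had a higher opposite share than the 0.00379% of Mir126a over both pups. The opposite-strand reads at Mir126a were thus no more frequent than at several other abundant genes. Mir143 and Mir145a had 0 opposite-strand counts in both pups.

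The pups differed little in these genes. An exact two-sided binomial test of each gene given the library totals, with Benjamini-Hochberg adjustment over the 413 genes with at least 10 counts summed, called 2 of the 3 members. Mir126a was lower in pup 2, with a log2 ratio of pup 2 over pup 1 of -0.10 (adjusted p = 3.7e-47). Mir143 was higher, with a log2 ratio of 0.04 (adjusted p = 0.00409). Mir145a, at -0.12, was not called (adjusted p = 0.231), on 675 and 707 counts. The test called 40.9% of all tested genes, 25.7% higher and 15.3% lower, so 2 calls among 3 genes at this depth do not set the members apart.

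These calls compare 2 libraries by counting error and hold no variation between animals. The ratio of Mir126a was small beside those of other genes: 24.7% of the tested genes had a smaller log2 ratio in size, and 10.9% had one smaller than that of Mir143. The SD of Mir126a over the pups was 0.07 on the log2(CPM + 1) scale, below the 0.16 pooled over genes of its abundance class. The call for Mir143 ended with TMM scaling (log2 ratio 0.0014, adjusted p = 0.965), with DESeq2 scaling (0.0010, adjusted p = 0.978) and with totals that left out the most abundant gene, Mir10b (0.018, adjusted p = 0.289). Mir126a stayed lower in pup 2 and called with TMM scaling, DESeq2 scaling and the total without Mir10b, at log2 ratios of -0.14, -0.14 and -0.12.

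**Figure D3:**
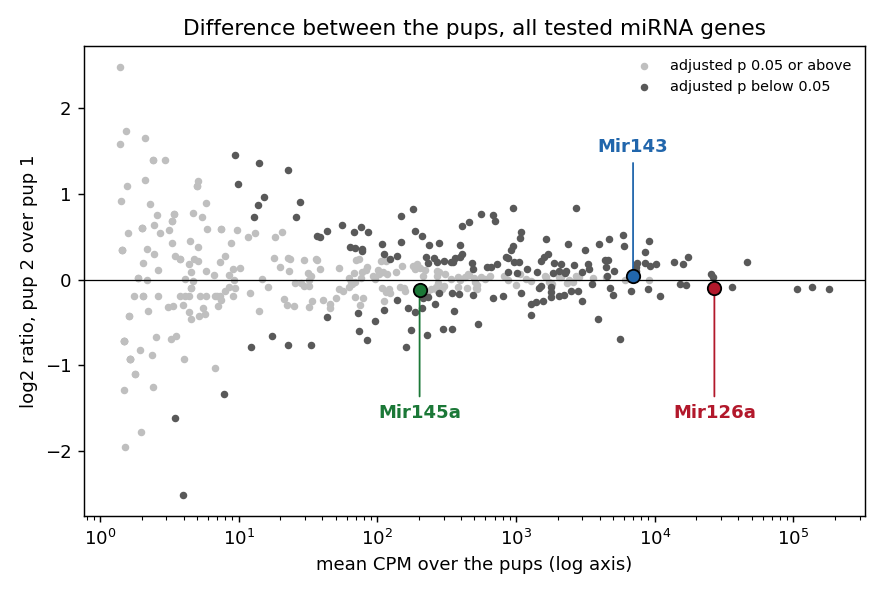
Log2 ratio of pup 2 over pup 1 against mean CPM (logarithmic axis) for the 413 tested miRNA genes, with called genes in dark grey and others in light grey. Mir126a (-0.10), Mir143 (0.04) and Mir145a (-0.12) all lie close to the line of no difference.

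Genes closest to each member over the 2 pups, by Euclidean distance of log2(CPM + 1), are not among the vascular genes. For Mir126a they were Mir335 (26373 CPM ± 435, SD, n = 2) and Mirlet7i (25594 CPM ± 815), and both were called higher in pup 2, unlike Mir126a. Mir143 was nearest to Mir30d (7270 CPM ± 509) and Mir382 (7336 CPM ± 354). Mir145a was nearest to Mir666 (199 CPM ± 12.5) and to Mir150 of lymphocytes (207 CPM ± 8.62). They were picked for their closeness, so that closeness is a description, and with 2 pups it rests on level and on a single ratio.

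Lists of genes known from other cells put these levels in context. Mir126a alone held 2.69% ± 0.129 of the own-strand counts (SD, n = 2) and the 3 genes grouped as mural 0.718% ± 0.0133. The neural list, of which 11 of 14 measured genes were detected, held 2.71% ± 0.313, led by Mir137, a miRNA of neurons. Mir126a exceeded Mir137 by 1.85-fold in pup 1 and 1.52-fold in pup 2, beyond the pooled spread, whereas Mir137 exceeded Mir143 by 2.19-fold and 2.42-fold. Some neural families have several gene copies whose shared reads were not counted, which lowers the list's share by an amount not measured.

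The 18 measured genes of a list reported in endothelium, most of them used in many other tissues too, were all detected and together held 4.68% ± 0.388 of the counts. Its most abundant gene, Mir130a (15103 CPM ± 330), lay below Mir126a by 1.82-fold and 1.75-fold in pups 1 and 2. Of the 18 genes 9 were called higher in pup 2 and 5 lower, where 25.7% and 15.3% of all tested genes were called, with a median log2 ratio of 0.10, against 0.04 over all 352 detected genes. Mir126a at -0.10 lay on the other side of 0 from that median. Among genes called lower beside it were Mir18 of the miR-17-92 cluster (-0.25), Mir27b (-0.16) and Mir130a (-0.04), and among those called higher were Mir23a (0.53) and Mir23b (0.45).

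Of the further list reported in smooth muscle, 2 of 5 measured genes were detected. Mir21a, which is also widespread in other tissues, stood at 4637 CPM ± 517, and Mir143 exceeded it by 1.61-fold in pup 1 and 1.42-fold in pup 2. Mir490, a miRNA within the muscarinic receptor gene Chrm2, stood at 79.0 CPM ± 8.25. Mir1a-1, Mir133a-1 and Mir133a-2, shared with striated muscle, had 0 counts in both pups; each of these miRNAs is made by more than 1 gene, and reads that fit several copies were not counted.

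Markers of other cells that a dissected neural tube could bring along were lower, as counted, than the leading vascular genes. Reads shared by gene copies, as in the miR-199 family of the mesenchyme list, were not counted. That lowers the list's share by an amount not measured, and blood genes without a row add nothing to theirs. The mesenchyme list held 0.392% ± 0.0371 of the counts, with Mir140 of cartilage below Mir143 by 2.14-fold in pup 1 and 2.01-fold in pup 2. Blood genes, 6 measured of 8, held 0.0668% ± 0.00552, and Mir150, the highest of them in mean, lay below Mir126a by 131-fold in pup 1 and 129.5-fold in pup 2; in pup 2 Mir223 of myeloid cells (222 CPM) was above Mir150 (201 CPM). Epithelial genes held 0.0518% ± 0.00275, striated muscle genes 0.0109% ± 0.00293 and Mir122 of hepatocytes 0.00842% ± 0.00283.

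These lists moved between the pups as follows, beside 25.7% of all tested genes called higher and 15.3% called lower. In pup 2, 3 of 6 tested blood genes were called higher and 0 lower (summed level 629 CPM in pup 1, 707 CPM in pup 2), as were 3 of 4 mesenchyme genes (3654 and 4178 CPM) and 9 of 13 neural genes (24922 and 29354 CPM). Of the striated muscle genes 2 of 5 were called higher and 0 lower (88.0 and 129 CPM), and of the epithelial genes 1 of 6 and 0 (499 and 538 CPM). Mir122 of hepatocytes was called lower, like Mir126a, at 104 CPM in pup 1 and 64.2 CPM in pup 2 (log2 ratio -0.70). Mir126a was thus lower in pup 2, as was Mir122, while the summed levels of the other 5 lists were higher. Sums were also higher in pup 2 for the lists reported in endothelium (44029 and 49518 CPM) and in smooth muscle (4356 and 5076 CPM). The 3 genes grouped as mural summed to 7084 CPM in pup 1 and 7272 CPM in pup 2. The sums were not tested. Of the 5 genes with a higher mean than Mir126a, Mir10b (log2 ratio -0.11), Mir10a (-0.09), Mir99a (-0.11) and Mir487b (-0.09) were also called lower. The remaining gene, Mirlet7g (0.21), was called higher. The part of any of these genes or lists in the difference of Mir126a was not tested.

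**Figure D4:**
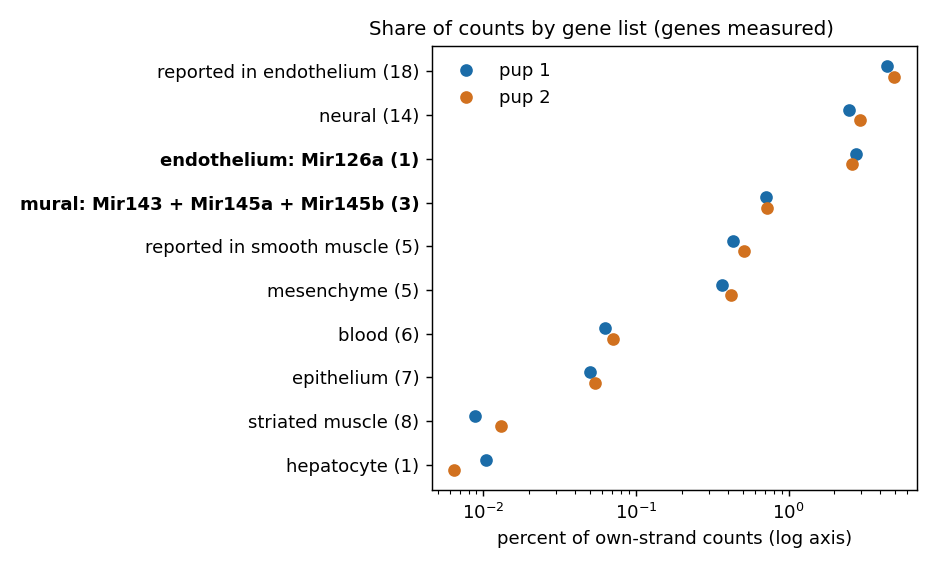
Percent of own-strand counts (logarithmic axis) held by each gene list in pup 1 (blue) and pup 2 (orange), with the number of genes measured in parentheses. Mir126a alone, at 2.78% and 2.60%, lies beside the neural list of 14 genes, and the mural genes (0.708% and 0.727%) lie above the mesenchyme and blood lists. Reads shared by gene copies were not counted, which lowers the neural and mesenchyme lists by an amount not measured.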

How the data were processed

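For each of the 2 libraries the authors deposited a table of raw counts, whole numbers per miRNA precursor gene, in 3 columns that were read, from their values, as either strand, own strand and opposite strand. The text deposited beside the tables names mm10 and GENCODE M4. Which aligner and counting program were used is not given in the sources used here. Rows that name no gene stayed out of totals. Multimapping reads, 35.7% of all reads in pup 1 and 35.4% in pup 2, were counted to no gene.

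Symbols and loci came from GENCODE M21, on the same build, by Ensembl identifier without its version (1894 of 1973 matched). Of 71 distinct list genes in 10 lists, 65 had a row, 2 of them under another name. Members and lists were chosen with earlier results of these data known. The text names the members, the 2 genes nearest to each, and genes from the 3 highest of each list. Mir18, Mir27b, Mir1a-1, Mir133a-1, Mir133a-2, the genes more abundant than Mir126a and the neighbouring pairs of the closing section were named after their values were seen.

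Own-strand counts were divided by their library total and multiplied by 1000000, so a single count is worth 0.311 CPM (pup 1) or 0.273 CPM (pup 2). For log2 ratios 0.5 was added to every count. Spread was pooled in 4 abundance classes. The binomial test was run on simulated counts that held counting error only, so that run says nothing of variation between animals. Alternatives were TMM (edgeR 4.0.16) and DESeq2 1.42.0 scaling, other totals, filters, pseudocounts and strands, precursor length, and leaving out each pup. R 4.3.3 and Python 3.11.15 were used, with scipy 1.17.1 for the tests, numpy 2.4.6 and pandas 2.3.3 for tables, and matplotlib 3.10.9 for figures.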

Additional observations from a re-analysis of the deposited data

Results flagged for a closer look

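The opposite-strand count of Mir126a was 3 in pup 1 and 4 in pup 2, flagged for passing a limit of 3 counts. That limit belongs to a count of 0 and gives no background for an observed count. Over both pups, 12 of the 145 genes with at least 1000 own-strand counts in each pup had a higher opposite share. The strand is that of Mir126b, and whether these reads are miR-126b was not tested.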

How the results depend on the processing

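Of 134 values under alternatives, 115 kept their call or stayed within the spread, and 0 changed direction. Part of the 115 could not change, such as the level of Mir145b, which is 0 under any scaling. Levels moved with the denominator, by construction. For Mir126a, Mir143 and Mir145a they were 32871, 8515 and 246 CPM with totals that left out Mir10b, 13637, 3534 and 102 per 1000000 reads of any kind, and 29298, 8798 and 229 per base of precursor scaled to 1000000. Mir143 was 6828 CPM with either-strand counts. The pup call for Mir143 (log2 ratio 0.04) ended at 0.0014 (TMM), 0.0010 (DESeq2) and 0.018 (total without Mir10b); both scalings moved the median of all detected genes by -0.04. The mural list then had 0 genes called higher with TMM or DESeq2 scaling, in place of 1. Of the striated muscle genes 3 were detected, but 1 at 50 counts and 5 with no minimum; of the epithelial genes 5, but 2 at 50 counts. Leaving out a pup cannot move a mean of 2 by more than its SD, so it says nothing of stability. No paired analysis was possible because there is 1 group. Depth leaves Mir145b at a limit of 3 counts and Mir145a at 675 and 707 counts.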

Other observations

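The gap between Mir143 and Mir145a was set beside other neighbouring miRNA genes, a comparison chosen after the values were seen. Of 82 pairs of successive detected genes on the same strand with at most 2000 bases between them, 15 pairs (18.3%) differed by more than the 34.5-fold of Mir143 and Mir145a. The median fold between neighbours was 4.92, with quartiles at 1.90 and 27.7. The widest pair was Mir487b and Mir539, at 459.9-fold, and Mir20a lay 301-fold above Mir19b-1. With at most 10000 bases between neighbours, 23 of 107 pairs (21.5%) differed by more than Mir143 and Mir145a. Some neighbours, among them Mir19b-1, belong to families with several copies, whose multimapping reads were not counted. That can change their folds, and with them the 18.3% and 21.5%, by an amount not measured. Their pairs are not separated here, whereas Mir143 and Mir145a share no 18 bases with another locus.

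Between the pups, the log2 ratios of Mir143 and Mir145a (0.04 and -0.12) differed by 0.16; 58 of the 82 neighbouring pairs differed by more, with a median of 0.24. This is a description of 2 libraries, and pairs with few counts differ more by counting error alone.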
